A study of Homo sapiens with 12 samples.

Results

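The mitotic kinases and spindle checkpoint genes described here form one set of 10: the kinases PLK1, PLK4, AURKA, BUB1, TTK, NEK2 and MELK, the pseudokinase BUB1B, the Aurora A activator TPX2, and the checkpoint protein MAD2L1. They were picked by gene symbol from the authors' deposited comparison table, and all 10 were found among 19460 genes and joined by gene identifier to the FPKM of each library. The rule used no measured value, but the members, gene lists and rules were chosen with earlier results of these data known. For the same genes, 88 of 145447 alternative splicing events and 7 of 38121 ATAC-seq peaks (those within 1 kb of a gene start) were also analysed.

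The cells were T-47D, an established human oestrogen receptor positive luminal breast cancer line, labelled wild type in the RNA samples. Treated cells received 1 µM palbociclib, an inhibitor of the cell cycle kinases CDK4 and CDK6, for 24 h, and control cells received the solvent DMSO for 24 h. Poly(A) RNA sequencing and ATAC-seq, which reads chromatin that the transposase Tn5 can enter, were each run on 3 replicates per treatment, 6 libraries per assay. The ATAC titles call these biological replicates, and the RNA titles say only rep. One line, 1 dose and 1 time were measured.

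Entry into mitosis and its order depend on a small set of protein kinases. PLK1 and the Aurora kinases drive centrosome maturation, spindle assembly and mitotic entry, PLK4 starts centriole duplication, and NEK2 helps centrosomes part. The spindle checkpoint holds cells before anaphase: TTK (also called MPS1) and BUB1 signal from unattached kinetochores, and MAD2L1 and BUB1B (the proteins MAD2 and BUBR1) act with BUB3 and CDC20 to restrain the anaphase-promoting complex. Messages of such genes are known to be made mostly in late S phase and G2, under control elements close to the start site. These include the cell cycle homology region, a hexamer bound by the MuvB complex, and the CCAAT box bound by NF-Y.

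The bases just before the start site are shown for 5 genes, because in most of them the hexamer, CCAAT or both can be read there directly. Only the PLK1 stretch holds both. The 5 genes also include the largest RNA falls and the largest promoter change, with MELK as a case without a match. RefSeq promoter windows on GRCh38.p14, 300 bases from 250 before to 50 after a start, were matched for 7 of the 10 genes, not for AURKA, TPX2 and TTK. The last 100 bases before the start are printed 5′ to 3′ on the gene's strand, in lower case, with capitals for the hexamers TTTGAA or TTCGAA of the cell cycle homology region and for CCAAT or its reverse complement ATTGG. The PLK1 stretch is chr16:23678789-23678888 on the plus strand, and that of BUB1B is chr15:40160969-40161068 on the plus strand. The NEK2 stretch is chr1:211675622-211675721 on the minus strand, that of BUB1 is chr2:110678064-110678163 on the minus strand, and that of MELK is chr9:36572795-36572894 on the plus strand.
PLK1: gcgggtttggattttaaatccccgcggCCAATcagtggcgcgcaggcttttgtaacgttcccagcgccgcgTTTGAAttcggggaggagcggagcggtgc
BUB1B: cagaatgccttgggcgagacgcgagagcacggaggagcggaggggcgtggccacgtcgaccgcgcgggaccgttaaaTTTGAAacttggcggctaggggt
NEK2: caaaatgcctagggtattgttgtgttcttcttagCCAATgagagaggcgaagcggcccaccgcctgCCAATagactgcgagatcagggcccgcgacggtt
BUB1: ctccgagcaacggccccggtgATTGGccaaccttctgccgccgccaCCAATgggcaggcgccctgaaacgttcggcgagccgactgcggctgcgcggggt
MELK: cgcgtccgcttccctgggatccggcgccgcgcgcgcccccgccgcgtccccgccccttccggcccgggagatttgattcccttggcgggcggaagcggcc

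In PLK1 the hexamer TTTGAA lay 29 to 24 bases before the start and a CCAAT box 73 to 69 bases before it. BUB1B carried TTTGAA 23 to 18 bases before the start and no CCAAT box in its window. NEK2 had a pair of CCAAT boxes, the nearer one 34 to 30 bases before the start, and no hexamer. BUB1 had 2 CCAAT boxes on opposite strands before the start and TTCGAA just after it. The MELK window held none of the motifs searched. On either strand, 5 of the 7 matched genes held a hexamer of the cell cycle homology region in a window, against 16.4% of all 35116 RefSeq windows of this length. Only in PLK1 and BUB1B did it lie before the start. Counted from the start, it took bases 25 to 30 in MAD2L1, and 39 to 44 in PLK4 at 1 of 3 listed starts. CCAAT was found in 5 of 7 genes, against 34.6% of windows. An E2F core, searched as the letters TTCCCGC, then as TTGGCGC, then as TTCGCGC and last as TTGCCGC, was found in 2 of 7 genes (PLK4 and MAD2L1), against 13% of windows. No match overlapped a match of another motif. PLK4 had 3 listed starts, which gives it more windows than the other genes.

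All 10 genes were lower after palbociclib, and in none did the groups overlap. The RNA left ranged from 8.22% of the DMSO mean for PLK1 to 21.2% for AURKA, with a median of 10.7% over the 10 genes. In limma with a trend on log2(FPKM + 1), the log2 changes ran from -3.40 to -2.18 with a median of -2.88, and Benjamini-Hochberg adjusted p values ran from 3.95e-10 to 1.49e-06. Of 15869 genes tested, 22.9% were called lower, 3.04% were called lower by at least 1 log2 unit, and 28.2% had palbociclib values below every DMSO value. The median log2 change over all tested genes was 0.00. A log2 change as low as that of AURKA, the smallest fall of the 10, was reached by 1.05% of tested genes. In bulk RNA, fewer cells in the phases that express these genes and less message per cell cannot be told apart.

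**Figure D1:**
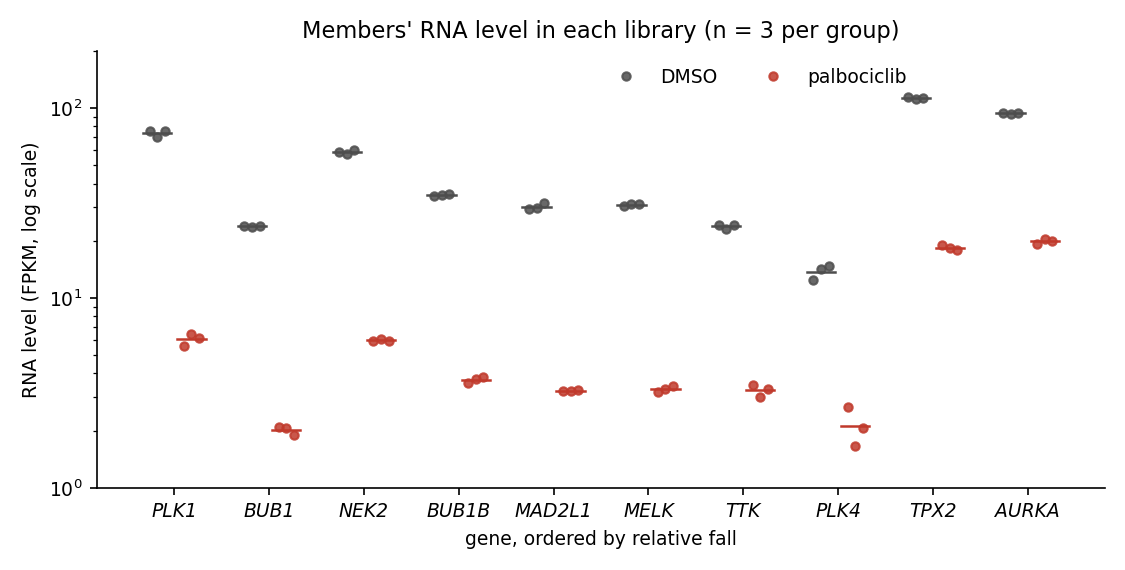
RNA level in FPKM on a log axis for each of the 10 genes in every library, with DMSO in grey and palbociclib in red, 1 point per library and a line at the mean of 3. Every palbociclib point lies below every DMSO point of its gene; AURKA and TPX2 kept the highest levels and PLK4 had the widest spread.

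PLK1, the polo-like kinase of mitotic entry and spindle assembly (chr16:23678889-23690367, plus strand), fell the most in relative terms. Its FPKM were 75.4, 69.9 and 75.5 in the DMSO libraries and 5.60, 6.44 and 6.12 in the palbociclib libraries. The means were 73.6 ± 3.24 (SD, n = 3) and 6.05 ± 0.426, a 12.2-fold difference, with a limma log2 change of -3.40 (SE 0.06, adjusted p 9.31e-10). PLK4, the kinase that starts centriole duplication (chr4:127880893-127899224, plus strand), had 12.4, 14.2 and 14.7 FPKM in DMSO and 2.65, 1.66 and 2.05 with palbociclib. It was the least abundant of the 10 in DMSO and the least even: the coefficient of variation in palbociclib was 23.6%, against at most 7.04% for the other 9 genes. Its limma log2 change was -2.25 with the largest SE of the 10, 0.12, and a 95% interval from -2.51 to -1.98.

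AURKA, the Aurora A kinase of centrosome maturation and spindle assembly (chr20:56369390-56392215, minus strand), had 94.4, 92.4 and 94.2 FPKM in DMSO. With palbociclib it had 19.1, 20.4 and 20.0 FPKM, the highest level of the 10 in that group. The means of 93.7 ± 1.08 and 19.9 ± 0.682 (SD, n = 3) differed 4.72-fold, with a limma log2 change of -2.18 (95% interval -2.26 to -2.10). TPX2, which activates Aurora A and targets it to spindle microtubules (chr20:31739290-31801800, plus strand), was the most abundant in DMSO at 114, 111 and 113 FPKM. It had 19.0, 18.2 and 17.8 FPKM with palbociclib, 16.3% of the DMSO mean. The kinase and its activator thus fell 4.72-fold and 6.15-fold, the smallest of the 10 falls without a pseudocount.

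The 4 spindle checkpoint genes fell between 7.27-fold and 11.8-fold. BUB1, the kinetochore kinase that marks centromeres through histone H2A (chr2:110637528-110678063, minus strand), had 23.8, 23.7 and 24.0 FPKM in DMSO and 2.09, 2.06 and 1.89 with palbociclib. That left 8.45% of the DMSO mean, with a limma log2 change of -3.04 (SE 0.05, adjusted p 1.06e-09). BUB1B (chr15:40161069-40221123, plus strand) had 34.5, 34.8 and 35.2 FPKM in DMSO and 3.56, 3.73 and 3.82 with palbociclib. MAD2L1, which binds CDC20 in the checkpoint complex (chr4:120055623-120066848, minus strand), had 29.2, 29.9 and 31.6 FPKM in DMSO and 3.22, 3.25 and 3.26 with palbociclib. These last 2 genes kept 10.6% and 10.7% of their DMSO means. TTK (chr6:80004649-80042527, plus strand), the kinase that phosphorylates the kinetochore scaffold KNL1, had 24.1, 23.1 and 24.3 FPKM in DMSO and 3.47, 3.03 and 3.32 with palbociclib, 13.7% of the DMSO mean.

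NEK2, the NIMA-related kinase of centrosome separation (chr1:211658256-211675621, minus strand), had 58.9, 57.4 and 59.7 FPKM in DMSO. Its palbociclib values of 5.95, 6.06 and 5.95 lay within a coefficient of variation of 1.02%, and the means differed 9.80-fold. MELK, a kinase of the AMPK-related family that is raised in dividing cells (chr9:36572895-36677682, plus strand), had 30.3, 31.2 and 31.1 FPKM in DMSO and 3.20, 3.30 and 3.45 with palbociclib. It kept 10.7% of its DMSO mean, the same share to 3 digits as MAD2L1.

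Ordered by the ratio of means, the fall was largest for PLK1, then BUB1, NEK2, BUB1B, MAD2L1, MELK, TTK, PLK4, TPX2 and AURKA. Taking each palbociclib library against the DMSO mean, neighbours in this order were apart in 3 of 9 places: between BUB1 and NEK2, between MELK and TTK, and between TPX2 and AURKA. In the other 6 places the ranges overlapped. Overlap between neighbours does not carry further along the order: the ranges of TTK (12.7% to 14.6% left) and TPX2 (15.8% to 16.8%) were apart, and both overlapped only the wide range of PLK4 (12.1% to 19.3%). The order on the log2(FPKM + 1) scale differs in places, because the pseudocount shrinks the fall of genes left near 2 FPKM such as BUB1. The authors' deposited DESeq2 table gave log2 changes from -3.60 for PLK1 to -2.24 for AURKA, with standard errors from 0.04 to 0.13, the largest for PLK4.

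By level per length, the order in DMSO was TPX2, AURKA, PLK1, NEK2, BUB1B, MELK, MAD2L1, BUB1, TTK and PLK4. The libraries of MELK and MAD2L1 overlapped in level, as did those of BUB1 and TTK. With palbociclib, AURKA stood first and TPX2 next, without overlap, while PLK1 and NEK2 overlapped. The ratio of the highest to the lowest mean level was 8.21 in DMSO and 9.85 with palbociclib. The sum over the 10 genes was 488 to 504 FPKM in DMSO libraries and 67.7 to 68.2 FPKM in palbociclib libraries. The median of the 10 genes, on log2(FPKM + 1) relative to the DMSO mean, was -2.91, -2.88 and -2.86 in palbociclib replicates 1, 2 and 3. By this median over genes the 3 treated libraries lay close together. Single genes can differ more between libraries: PLK4, the least even of the 10, kept 12.1% to 19.3% of its DMSO mean.

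Scaling the authors' mean normalized count by FPKM gave approximate normalized counts per library, as a guide to depth, from 254 for PLK4 to 31772 for TPX2. A second reading came from splicing reads of the same libraries, as the reads of each gene's most covered event as a share of the library's reads in all events. By this measure 8.03% to 22.1% of the DMSO value was left, and the 2 measures differed at most 1.41-fold, for MAD2L1 (15.1% against 10.7%). For PLK1 they gave 8.03% and 8.22%.

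The label of the cells was checked on marker genes. All 10 luminal epithelial markers had a mean of at least 1 FPKM, led by KRT19, and their summed level was 5599 to 6125 FPKM in DMSO and 7522 to 8304 FPKM with palbociclib. Of the other lists, 4 of 7 fibroblast, 4 of 6 leukocyte and 2 of 4 basal markers were analysed here. In each list 1 marker had a mean of at least 1 FPKM (COL1A1, HLA-DRA and ACTA2), and none of those analysed was at 0 in every library. Their sums overlapped between treatments, in that order: 23.9 to 25.3 and 24.8 to 27.1 FPKM, 4.03 to 4.20 and 3.30 to 4.49 FPKM, and 8.98 to 9.21 and 8.57 to 9.23 FPKM in DMSO and palbociclib. The 4 endothelial markers were not analysed here. The summed luminal level was higher where the mitotic genes were lower. KRT19 weighs heavily in this sum, with a mean of 2515 FPKM over all libraries against 6.77 FPKM for TFF1. The direction of each marker is not given here, and the part of that shift in the result was not tested.

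Related genes outside the set were followed in 8 lists. Among spindle checkpoint and kinetochore genes, all 16 tested non-members fell at an adjusted p under 0.05, against 22.9% of all genes, with a median log2 change of -2.22. SPC25, NUF2 and NDC80, subunits of the kinetochore complex that grips microtubules, had the largest falls. SPC25 went from 24.4 ± 0.435 to 0.830 ± 0.277 FPKM (SD, n = 3; log2 -3.80), NUF2 changed by -3.29 and NDC80 by -3.24. CDC20, the activator that the checkpoint restrains, went from 66.6 ± 1.02 to 7.83 ± 0.611 FPKM, a log2 change of -2.94. Smaller changes were measured for other shared parts of the checkpoint. BUB3, the partner of BUB1 and BUB1B, went from 94.2 ± 1.57 to 61.0 ± 0.736 FPKM (log2 -0.62, adjusted p 8.86e-07). MAD1L1, the kinetochore anchor of MAD2L1, went from 6.56 ± 0.349 to 5.48 ± 0.488 FPKM (log2 -0.22, adjusted p 0.0327). The MAD1L1 call was lost under quantile normalization (adjusted p 0.136), under median centring (0.174) and without DMSO replicate 2 (0.0762), DMSO replicate 3 (0.0971), palbociclib replicate 1 (0.0992) or palbociclib replicate 3 (0.0939).

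**Figure D2:**
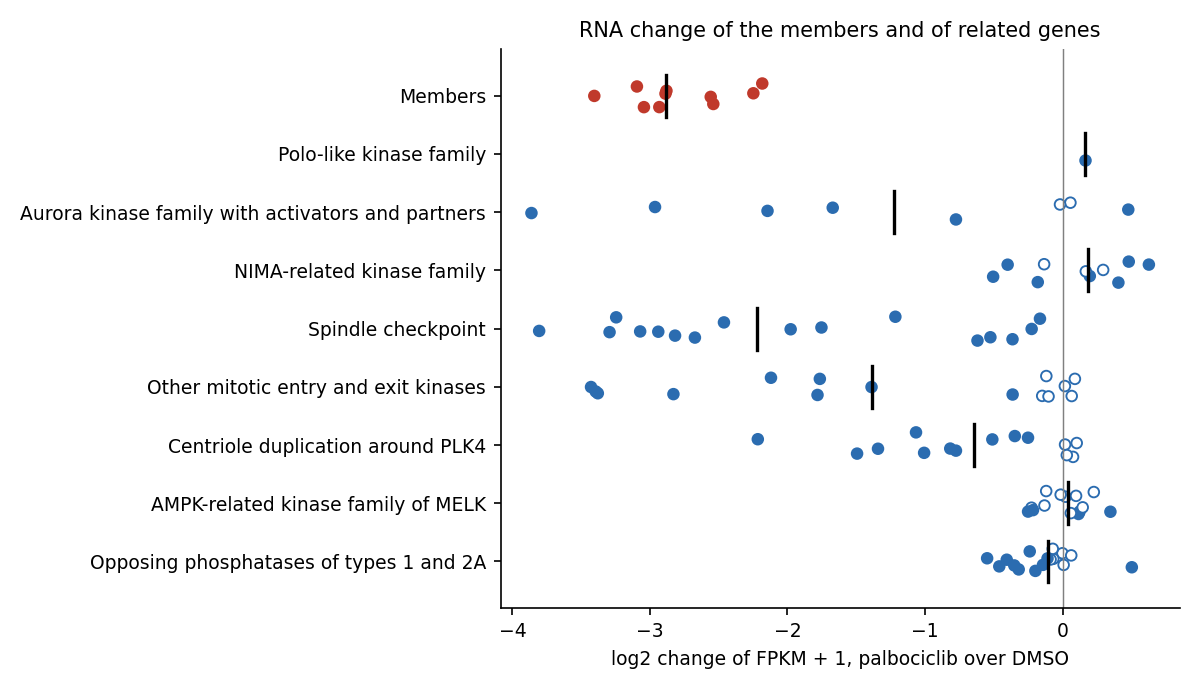
Log2 change of FPKM + 1 (palbociclib over DMSO) for the 10 genes (red) and for tested non-members in 8 related lists (blue), 1 point per gene, filled where the limma adjusted p was under 0.05, with a black line at each list's median. The 10 genes lie between -3.40 and -2.18; the spindle checkpoint list spans from SPC25 at -3.80 to MAD2L1BP at -0.16, while the NIMA-related and AMPK-related families sit around 0.

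The kinase families of these genes held relatives with other values. In the polo-like family, PLK2, a kinase induced by stress and growth signals, was abundant and slightly higher, 82.4 ± 3.16 against 92.4 ± 0.793 FPKM (log2 0.16, SE 0.04, adjusted p 0.0055), whereas PLK1 and PLK4 fell. PLK3 was near the floor at 0.402 ± 0.0171 and 0.239 ± 0.0827 FPKM and was not tested. In the Aurora list, 5 of 8 tested non-members fell and 1 rose, against 22.9% lower and 20.9% higher over all genes. AURKB, the chromosomal passenger kinase, went from 43.1 ± 1.94 to 2.03 ± 0.156 FPKM, and its log2 change of -3.86 was larger than that of any of the 10 genes. TACC3, an Aurora A substrate on spindle microtubules, changed by -2.96, and INCENP, the Aurora B activator, by -2.14. NEDD9, a scaffold that can activate Aurora A, rose from 1.24 ± 0.0926 to 2.12 ± 0.0885 FPKM (log2 0.48, adjusted p 9.31e-04). AURKC was near the floor at 0.153 and 0.145 FPKM and was not tested.

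The log2 change of NEK2 was -3.09. Of 10 other NIMA-related kinases, 3 fell and 4 rose, against 22.9% lower and 20.9% higher over all genes, and none moved by 1 log2 unit. NEK10 rose by 0.63, NEK11 by 0.48 and NEK6 by 0.41 on the log2 scale, and NEK4 fell by 0.40. The number lower was 1 under quantile normalization and under median centring. In the AMPK-related family of MELK, whose own log2 change was -2.89, 2 of 14 other tested genes fell and 3 rose. BRSK1 rose by 0.35, SNRK fell by 0.25 and SIK2 fell by 0.21 on the log2 scale. The calls for SIK2 and SNRK were lost under quantile normalization (adjusted p 0.0698 and 0.0788) and under median centring (0.101 and 0.101). The call for SNRK was also lost without DMSO replicate 1 or 3 or palbociclib replicate 1 or 2 (0.058 to 0.0775), and that for BRSK1 without DMSO replicate 1 or 2 or palbociclib replicate 2 or 3 (0.0504 to 0.0593).

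Of 15 other kinases of mitotic entry and exit, 9 fell and 6 were not called, with a median log2 change of -1.39. CDK1, the central mitotic kinase, went from 199.9 ± 1.5 to 17.7 ± 0.552 FPKM (log2 -3.43), PBK changed by -3.39 and PKMYT1, an inhibitory kinase of CDK1, by -3.38. Around PLK4, 10 of 14 other centriole genes fell and 4 were not called, with a median of -0.64. STIL, a direct partner of PLK4, changed by -2.22, CENPJ by -1.49 and CEP152 by -1.34. On the same scale PLK4 changed by -2.25. Of 17 genes of the opposing phosphatases of types 1 and 2A, 9 fell and 1 rose, none by 1 log2 unit. Over all tested genes, the background to these 3 lists, 22.9% were called lower and 20.9% higher. PPP1CA and PPP1CC, catalytic subunits of phosphatase 1, changed by -0.55 and -0.46, and PPP2R5B, a regulatory subunit of phosphatase 2A, rose by 0.50.

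The genes whose pattern over the 6 RNA libraries was most like the median of the 10 were TK1, DEPDC1B, E2F1, ZNF367 and SGO1, among 13762 candidates. Likeness was the root mean square difference on log2(FPKM + 1) relative to the DMSO mean, from 0.0136 for TK1 to 0.0464 for SGO1. TK1, a thymidine kinase, went from 118.7 ± 1.08 to 15.2 ± 0.0908 FPKM. SGO1, which protects centromeric cohesion, went from 15.7 ± 0.264 to 1.35 ± 0.102 FPKM. Because the libraries form 2 tight groups, this measure mostly matches the size of the fall.

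In percent of the DMSO mean, ATAC reads at the starts changed far less than the RNA. These are unlike measures, and their percentages are not on one scale. Of the 10 genes, 7 had 1 ATAC peak that covered the start, and all 7 values were lower with palbociclib, between 66.6% (NEK2) and 95.9% (AURKA) of the DMSO mean in library-scaled read counts (CPM). In edgeR's quasi-likelihood test over all 38121 peaks, 5 of the 7 were called lower at a Benjamini-Hochberg adjusted p under 0.05, against 11.5% of 6581 peaks within 1 kb of a gene start and 6.46% of all peaks. In 6 of 7 the groups did not overlap, against 24.0% of those peaks. The median log2 change was -0.20 for the 7 peaks and -0.05 for all peaks near starts. Between 12830062 and 18250496 reads fell in peaks per library. PLK1, PLK4 and MAD2L1 had no peak within 1 kb, the nearest lying 20334, 247557 and 16529 bases from the start, so the promoter of the gene with the largest RNA fall could not be read.

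**Figure D3:**
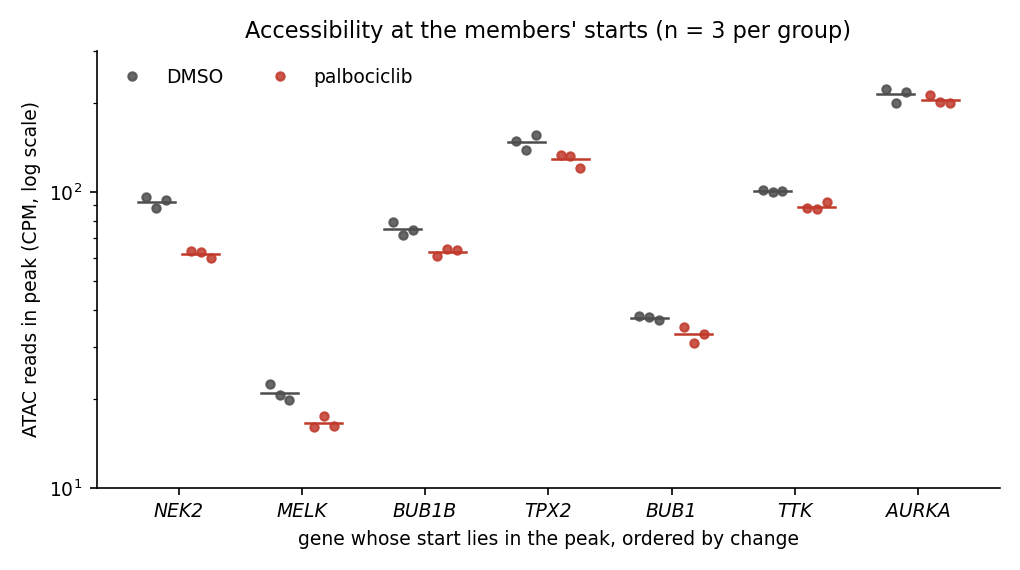
ATAC reads in the peak over the start of 7 genes, in CPM on a log axis, 1 point per library (DMSO grey, palbociclib red) with a line at the mean of 3. NEK2 shows the widest gap; the AURKA groups overlap.

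The NEK2 peak (chr1:211675224-211676160) had 96.4, 88.0 and 93.9 CPM in DMSO and 62.9, 62.7 and 59.8 CPM with palbociclib. Its log2 change was -0.58 (SE 0.06, adjusted p 3.60e-12), and 0.957% of the peaks near starts were as low. The NEK2 stretch printed above holds 2 CCAAT boxes, and so does that of BUB1, whose peak was not called (edgeR adjusted p 0.102). A link between these motifs and accessibility was not tested. The BUB1B peak (chr15:40160469-40161488) had 78.9, 71.8 and 74.4 CPM in DMSO and 60.9, 64.0 and 63.6 CPM with palbociclib, a log2 change of -0.25 (SE 0.06, adjusted p 0.00192). The NEK2 and BUB1B groups lay well apart relative to their spread, and these calls held without any 1 library.

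The other 3 calls were lost when certain single libraries were left out, which also leaves fewer libraries to test. Over these fits the log2 changes kept their direction: -0.24 to -0.15 for TPX2, -0.38 to -0.29 for MELK and -0.20 to -0.16 for TTK. The TPX2 peak (chr20:31738717-31739566) had 148.5, 139.1 and 156.0 CPM in DMSO and 133.6, 132.6 and 120.3 CPM with palbociclib (log2 -0.20, adjusted p 0.00511), and without DMSO replicate 3 its adjusted p was 0.0736. The MELK peak (chr9:36572510-36573325) was the smallest, with 22.5, 20.6 and 19.7 CPM in DMSO and 16.0, 17.5 and 16.2 CPM with palbociclib (log2 -0.34, SE 0.10, adjusted p 0.0183). Its call was lost in DESeq2 (adjusted p 0.052) and without DMSO replicate 1 (0.0962) or palbociclib replicate 1 (0.0857). The TTK peak (chr6:80003898-80004909) had 101.2, 100.01 and 101.0 CPM in DMSO and 88.0, 87.3 and 92.3 CPM with palbociclib (log2 -0.18, adjusted p 0.0197). Its call was lost without DMSO replicate 1 (0.0584), DMSO replicate 3 (0.063), palbociclib replicate 1 (0.097) or palbociclib replicate 2 (0.0696).

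The remaining 2 promoter peaks did not pass. The BUB1 peak (chr2:110677851-110678557) had 38, 37.9 and 36.9 CPM in DMSO and 35.0, 30.9 and 33.2 CPM with palbociclib, with a log2 change of -0.19 (95% interval -0.34 to -0.04, adjusted p 0.102). The RNA of BUB1 fell 11.8-fold by the ratio of means, next after PLK1, although on the log2(FPKM + 1) scale NEK2 (-3.09) lay below BUB1 (-3.04). The AURKA peak (chr20:56391969-56392969), the strongest of the 7, had 223, 200.2 and 217 CPM in DMSO and 213, 201.5 and 200.1 CPM with palbociclib. Its groups overlapped, and the log2 change was -0.06 (95% interval -0.15 to 0.03, adjusted p 0.444). AURKA also had the smallest RNA fall of the 10. The same peak covers the start of CSTF1, a gene of mRNA 3′ end processing that runs the other way from a start 164 bases off. CSTF1 went from 41.1 ± 1.09 to 36.8 ± 0.607 FPKM (SD, n = 3; log2 -0.15, limma adjusted p 0.00768), so reads in this peak cannot be assigned to either gene. The BUB1 and NEK2 peaks likewise cover the start of a second, long non-coding gene (LOC105373554 and NEK2-DT). NEK2-DT itself had 1.03 ± 0.224 FPKM in DMSO and 0.425 ± 0.00157 FPKM with palbociclib (SD, n = 3) and was called lower in limma (log2 change -0.50, adjusted p 0.00347), so the NEK2 peak cannot be assigned to NEK2 alone. The peaks of TPX2, BUB1B, TTK and MELK lay within 1 kb of no other listed start.

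**Figure D4:**
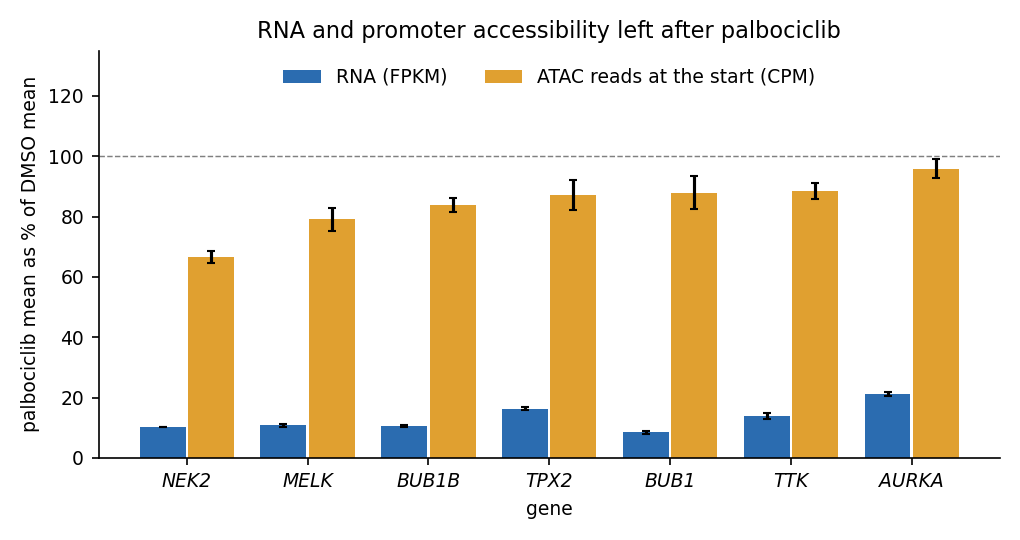
Palbociclib mean as a percentage of the DMSO mean for RNA (blue, FPKM) and for ATAC reads at the start (yellow, CPM) of the 7 genes with a promoter peak; bars start at 0 and error bars are the SD of 3 palbociclib libraries divided by the DMSO mean. RNA bars lie between 8.45% and 21.2% and ATAC bars between 66.6% and 95.9%.

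Splicing of the 10 genes was read from the authors' rMATS tables, which give for each event the reads that include or skip a segment and the inclusion level, a share from 0 to 1. The 88 events were 68 skipped exons, 9 pairs of mutually exclusive exons, 6 alternative 3′ sites and 5 alternative 5′ sites. They overlap one another and share reads. Most were nearly constant: in 63 events the minor form took under 5% of reads, including every event of PLK1, TPX2, BUB1, BUB1B and MAD2L1. With at least 20 reads per library on average and a minor form of at least 5%, 23 events could be tested, 12 in AURKA, 7 in MELK, 3 in PLK4 and 1 in TTK. Of these, 8 were listed as mutually exclusive pairs.

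None of the 23 passed an adjusted p under 0.05 in edgeR's quasi-likelihood test, in which 0.355% of 37445 events passed. At an unadjusted p under 0.05 there were 5 of 23, against 8.53% of all tested events. The authors' deposited FDR was under 0.05 for 4 of the 23, against 3.82% of the same events over all genes, and these were also the only 4 among all 88, against 2.47% of all listed events. The groups did not overlap in 5 of 23 events, against 13.3% overall. The 4 events in the authors' deposited table were 3 of AURKA and 1 of PLK4.

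The AURKA events concern exons next to its start. Exon a (chr20:56388687-56388784, 98 bases) and exon b (chr20:56390556-56390665, 110 bases) were each listed between a common exon (chr20:56388156-56388202) and one of 3 first exons. On this minus-strand gene the first exons were told apart by their donor end: number 1 at base 56392168, number 2 at 56392154 and number 3 at 56391943. With first exon 1, exon a was included at 0.427, 0.408 and 0.439 in DMSO and at 0.228, 0.217 and 0.248 with palbociclib. The group means of 0.425 ± 0.0156 and 0.231 ± 0.0157 (SD, n = 3) did not overlap, and the event rested on 295 and 91.7 reads per library. The edgeR log2 odds change was -1.29 (SE 0.31, adjusted p 0.0665), and the FDR in the authors' deposited table was 2.62e-05. Over the alternatives its adjusted p ran from 0.0435 with the replicate numbers as a block to 0.80 without the filter on the minor form.

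Exon b with first exon 1 was included at 0.583, 0.588 and 0.565 in DMSO and at 0.394, 0.404 and 0.452 with palbociclib (log2 odds -0.94, adjusted p 0.141; FDR 0.00117 in the authors' deposited table). Exon a with first exon 2 was included at 0.478, 0.447 and 0.468 in DMSO and at 0.294, 0.351 and 0.334 with palbociclib (log2 odds -0.84, adjusted p 0.45; FDR 0.0432 in the authors' deposited table). In both, every palbociclib library lay below every DMSO library. Exon b with first exon 2 overlapped between groups, at 0.543 to 0.624 in DMSO and 0.459 to 0.565 with palbociclib. With first exon 3 the levels were higher and the groups overlapped for both exons: exon a had means of 0.706 and 0.648, and exon b 0.789 and 0.779. Exon a was also listed between the common exon and exon b, on 494 and 112 reads per library. There its means were 0.419 in DMSO and 0.415 with palbociclib, and the groups overlapped. Listed as a mutually exclusive pair, exons a and b had overlapping levels, with means of 0.627 and 0.669. Exon b between exon a and first exon 2 was higher with palbociclib, 0.962 against 1.00 without overlap, but its minor form was too rare for testing. Whether the difference between treatments depends on the first exon was not tested. These levels cannot show it, because inclusion reads also hold exon-body reads, which cannot be assigned to a first exon. For a given first exon, the junction that skips exon a is also the one that skips exon b. The values of exons a and b are therefore not separate readings. The most covered AURKA event, listed as a mutually exclusive pair of exons further into the gene with 4780 and 1204 reads per library, had levels of 0.545 ± 0.01 and 0.56 ± 0.012 and a log2 odds change of 0.08 (95% interval -0.06 to 0.23). Listed as skipped exons, the same exons had mean inclusion levels of at least 0.994 in both groups, so the level of the pair is not a share of transcripts that use one exon in place of the other.

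**Figure D5:**
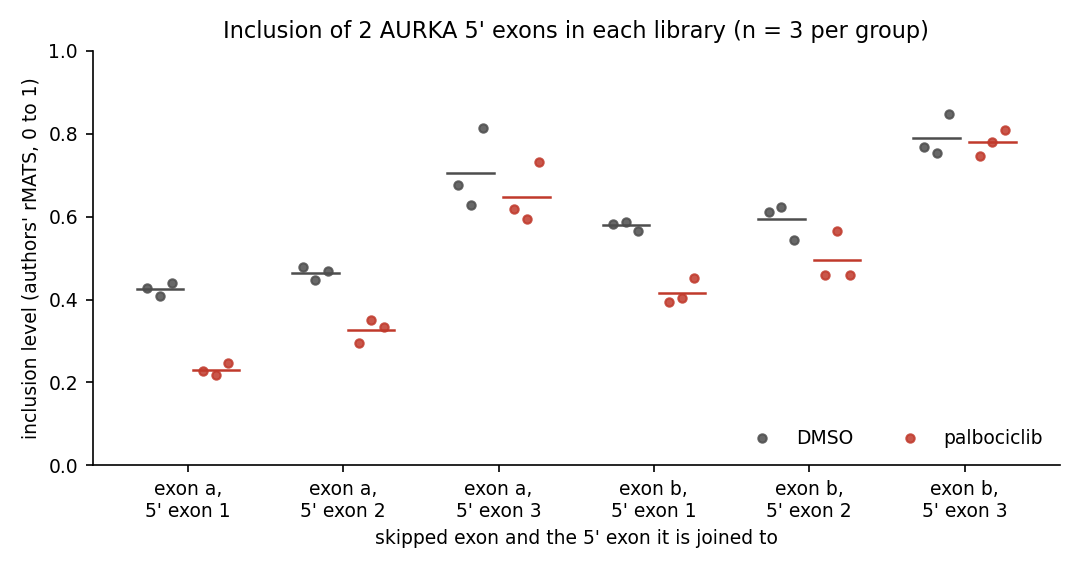
Inclusion level (0 to 1, as deposited) of AURKA exons a and b as listed with each of 3 first exons, 1 point per RNA library (DMSO grey, palbociclib red) with a line at the mean of 3. For each first exon, both exons share the skipping reads, and other listings of these exons are not shown. With first exon 1 the red points lie below the grey ones for both exons; with first exon 3 they overlap. None passed the adjusted threshold in edgeR.

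The PLK4 event was an alternative 5′ site, where the longer form of the exon (chr4:127885708-127886728) has 102 bases more than the shorter form. The longer form was used at 0.819, 0.829 and 0.871 in DMSO and at 0.965, 1.00 and 0.895 with palbociclib, where 54 reads per library remained. The log2 odds change was 1.49 (SE 0.64, adjusted p 0.464), with an FDR of 0.0193 in the authors' deposited table. Without palbociclib replicate 3 the log2 odds change was 2.73, and without any other single library it was 1.18 to 1.65. In MELK, an 86-base exon (chr9:36583627-36583712) was included at 0.79, 0.789 and 0.781 in DMSO and at 0.813, 0.976 and 0.893 with palbociclib (log2 odds 1.15, adjusted p 0.403). Leaving out palbociclib replicate 1 gave 1.84, and leaving out palbociclib replicate 2 gave 0.64. The most covered tested MELK event, listed as a mutually exclusive pair of exons near the 3′ end, had levels of 0.583 ± 0.0165 and 0.618 ± 0.0376 (log2 odds 0.23, adjusted p 0.786). Here too both exons, listed as skipped exons, had mean inclusion levels of at least 0.997 in both groups. The TTK event, a 3-base shift of an acceptor (exon chr6:80026378-80026514), had levels of 0.818 ± 0.0323 and 0.816 ± 0.0852. Its log2 odds change was -0.02 with a 95% interval from -2.01 to 1.97. The SE behind this interval was the size of the change over the square root of edgeR's F statistic. For this event that is a ratio of 2 values near 0, so the interval is not a firm bound. Shifts in either direction were not excluded.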

How the data were processed

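The members, gene lists and rules were chosen with earlier results of these data known. The authors deposited 1 FPKM column per RNA library. The authors' deposited table gave DESeq2 results: a mean normalized count (a signal), log2 fold changes, a Wald score and p-values. Salmon 1.10.2 and DESeq2 1.44.0, with fastp 0.23.2 and STAR 2.7.10b, are named in the submitters' processing notes, with build GRCh38. Inclusion and skipping read counts and levels were the authors' rMATS tables (junction and exon-body reads). For ATAC, the authors counted reads in peaks with featureCounts, and per the file headers these counts were not asked for as read pairs; Bowtie2, Picard and MACS3 are in the processing notes. The strand used in counting is not given in the sources used here.

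RNA was compared with limma 3.58.1 (R 4.3.3) on log2(FPKM + 1), with a trend, where the mean FPKM reached 0.5; the pseudocount understates changes of low genes. Peaks were compared with edgeR 4.0.16 after TMM scaling, and joined to RefSeq GRCh38.p14 starts within 1 kb. Events were compared with edgeR, fitting each library's level and the interaction of inclusion with treatment, adjusted over all event types. All p-values were Benjamini-Hochberg adjusted over all features, with 0.05 as threshold. Named genes in each list were the 3 largest called changes without overlap and the largest in the minority direction, plus PLK2, PLK3, AURKB, AURKC, BUB3, MAD1L1, CDC20 and CDK1. MAD2L1BP was named in a caption after its value was seen. Named events were each gene's most covered tested event; events named for the authors' FDR or an unadjusted p were chosen after their values were seen. The scripts were tested on simulated data. With 3 libraries per group, p-values set the difference between treatments against the variation between replicates, as moderated over all features tested. These replicates are labelled biological only in the ATAC titles.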

Additional observations from a re-analysis of the deposited data

How the results depend on the processing

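All 10 mitotic genes were called lower under all 13 RNA alternatives, with log2 changes from -3.58 to -2.09 and adjusted p of at most 4.45e-05 in limma. Counts in the related lists moved more. Without a filter on low values the polo-like family had 1 lower and 2 higher. With a mean FPKM of at least 5, the numbers higher were 0 in the Aurora list, 2 in the NIMA-related family and 1 in the centriole list. Under quantile normalization and under median centring alike, the number lower was 1 in the NIMA-related and 0 in the AMPK-related family, and the number higher was 2 in the Aurora list, 1 among other mitotic kinases, 2 among centriole genes and 2 among phosphatases; under median centring it was 5 in the AMPK-related family. These scalings shifted the median log2 change of all genes to 0.06 and 0.10. Leaving out 1 library gave 1 to 2 lower and 1 to 2 higher in the AMPK-related family, where 2 and 3 had been called, and 14 to 16 lower in the checkpoint list. Promoter peaks called lower numbered 3 to 5 of 7 when 1 library was left out and 4 in DESeq2, and 5 with library totals, without the count filter or within 500 bases or 2 kb of a start. Leaving out 1 library gave 0 called splicing events, and the log2 odds change of the TTK event ran from -0.44 to 0.39 and turned direction without DMSO replicate 3 (0.15), palbociclib replicate 1 (0.39) or palbociclib replicate 3 (0.06 log2 odds). By the authors' deposited FDR, 4 tested events were called.

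Replicate numbers recur in both treatments, but same-numbered libraries deviated together weakly at most. The correlation of deviations for numbers 1, 2 and 3 was 0.11, -0.01 and 0.09 in RNA. In ATAC it was 0.01, 0.04 and -0.03. DMSO libraries 1 and 3 in RNA and 2 in ATAC correlated best with their own number, and the other DMSO libraries did not. With a replicate block, 10 of 10 genes and 5 of 7 peaks were called lower as without it, and 1 splicing event was called instead of 0, AURKA exon a with first exon 1 (adjusted p 0.0435). The adjusted p of this event was 0.112 to 0.239 when 1 library was left out, 0.0639 with at least 10 reads and 0.80 without the filter on the minor form.

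Having 3 libraries per group limits all tests, and the listed events overlap and share reads.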

Other observations

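In MELK and BUB1B a peak lay inside the gene, away from its start, and both had higher means with palbociclib, whereas the peaks at the same genes' starts were called lower. The MELK peak (chr9:36597457-36597832, 24562 bases from the start) had 4.01, 4.39 and 4.72 CPM in DMSO and 6.25, 5.51 and 6.05 CPM with palbociclib, from 51 to 102 reads per library. Its log2 change was 0.44 (SE 0.18, edgeR adjusted p 0.0923), which did not pass the threshold. The BUB1B peak (chr15:40217075-40217627, 56006 bases from the start) had 11.6 ± 0.424 and 12.7 ± 0.494 CPM (SD, n = 3; log2 0.13, edgeR adjusted p 0.527).

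Of the 16 checkpoint genes outside the set, 13 had a RefSeq promoter window, 15 windows in all. A hexamer of the cell cycle homology region was found in a window of 8 of these 13 genes, against 16.4% of all windows. CCAAT was found in 7 of the 13, against 34.6% of windows, and an E2F core in 5, against 13% of windows.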
